A study of Mus musculus with 3 samples.

Results

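The 7 genes described here encode sensors of cytosolic RNA and of Z-form nucleic acid, and their close partners. They are *Ddx58* (RIG-I), *Ifih1* (MDA5), *Dhx58* (LGP2), *Mavs*, *Zbp1*, *Eif2ak2* (PKR) and *Adar* (ADAR1). They were picked by name from the list of counted genes, and each name matched 1 of the 32285 genes. Single cells were sequenced from bone marrow-derived macrophages (BMDMs) of female C3H/HeN mice aged 6 to 8 weeks. One library (LP1) came from BMDMs treated with purified lipoproteins of *Borrelia burgdorferi* (*Bb*LP) at 1 µg/mL for 1 hour, and 1 (LP4) from BMDMs given the same dose for 4 hours. The control library (Ctrl), labelled untreated, came per the study's methods from PBS-treated BMDMs collected at 4 hours, so LP1 and Ctrl also differ in their time in culture, and the effects of the treatment and of that time cannot be told apart. Bone marrow was pooled over mice per the labels, and cells from 3 wells were combined before capture. The study's single-cell methods instead describe BMDMs of 3 mice that were treated independently. Whether the wells came from separate mice cannot be told from the sources used here. With 1 library a condition there was no replicate, no test between conditions was made, and every interval below is a 95% interval that covers counting error only.

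RIG-I and MDA5 are helicases that bind double-stranded RNA in the cytosol, RIG-I mostly by the RNA end and MDA5 along long duplexes, and pass the signal to MAVS on mitochondria, which starts transcription of type I interferon genes. LGP2 binds RNA but lacks the signalling domains, and modulates MDA5 and RIG-I. ZBP1 binds Z-form RNA and DNA and can start necroptosis through RIPK3, PKR is a kinase that phosphorylates eIF2 alpha and so slows translation when it binds double-stranded RNA, and ADAR1 edits adenosine to inosine in double-stranded RNA and carries, in its long form, a Z-nucleic acid binding domain. Apart from MAVS these proteins are known as products of interferon-stimulated genes, which in macrophages follow signals from Toll-like receptors as well as from viral RNA.

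The promoters of 5 of the 7 genes were read from RefSeq (GRCm38.p6, 250 bases before to 50 after the start). They were searched for the core of the interferon-stimulated response element (ISRE), GAAA, any 2 bases and GAAA again, on either strand, because 6 of the 7 genes are known interferon-stimulated genes. *Ddx58*, *Ifih1* and *Eif2ak2* each held 1 match, and the promoters of *Mavs* (1) and *Adar* (3) held none. *Dhx58* and *Zbp1* were the members with no entry. Of all 32851 promoters in the table, 3.44% held a match. The matches lie just after the start, at bases 3 to 12 in *Ddx58* (chr4:40239804-40239833, minus strand), 33 to 42 in *Ifih1* (chr2:62646206-62646233, minus strand) and 19 to 28 in *Eif2ak2* (chr17:78882535-78882564, minus strand). The sequences are shown on the strand of the gene, 5′ to 3′, with the match in capitals:
*Ddx58*: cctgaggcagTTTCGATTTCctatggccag
*Ifih1*: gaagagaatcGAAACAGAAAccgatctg
*Eif2ak2*: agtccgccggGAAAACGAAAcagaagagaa
The letters of a STAT binding element (GAS), TTC, any 3 bases and GAA, occurred in *Eif2ak2* and in 1 *Adar* promoter, and in 8.30% of all promoters. The core of a kappaB site, GGG, any 5 bases and CC on either strand, occurred in *Eif2ak2* and in 2 *Adar* promoters, and in 50.8% of all promoters. None of these matches overlapped an ISRE match. A match is a description of the letters and not a measured binding site.

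The kept cells numbered 6071 in Ctrl, 5065 in LP1 and 4670 in LP4, with a median of 5133, 9343 and 11784 unique molecular identifiers (UMIs) per cell. All 10 macrophage markers searched for had UMIs in each library, with a summed level between 10692 and 12008 CPM. The neutrophil markers summed to 451 to 707 CPM, the dendritic cell markers to 155 to 158 CPM and the stromal markers to 5.35 to 22.1 CPM. Lymphocyte markers summed to under 1 CPM in every library and *Cd3e* was at 0. CPM is the UMIs of a gene summed over the kept cells of a library per 1000000 UMIs of those cells. The libraries count 3′ ends, so each gene is compared with itself between libraries.

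At 4 hours of *Bb*LP, 6 of the 7 genes were above Ctrl and *Mavs* was not, where the median log2 ratio of all compared genes was -0.15. How many of all genes were above Ctrl at any fold was not counted, so 6 of 7 has no background of its own. *Ifih1*, *Eif2ak2* and *Ddx58* were 3.43- to 4.74-fold higher. *Adar* and *Zbp1* were close to 2-fold higher, and *Dhx58* was 1.66-fold higher. By 1 hour none of the 7 was 2-fold higher or lower, and *Ddx58*, *Adar* and *Ifih1* were slightly below Ctrl.

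**Figure D1:**
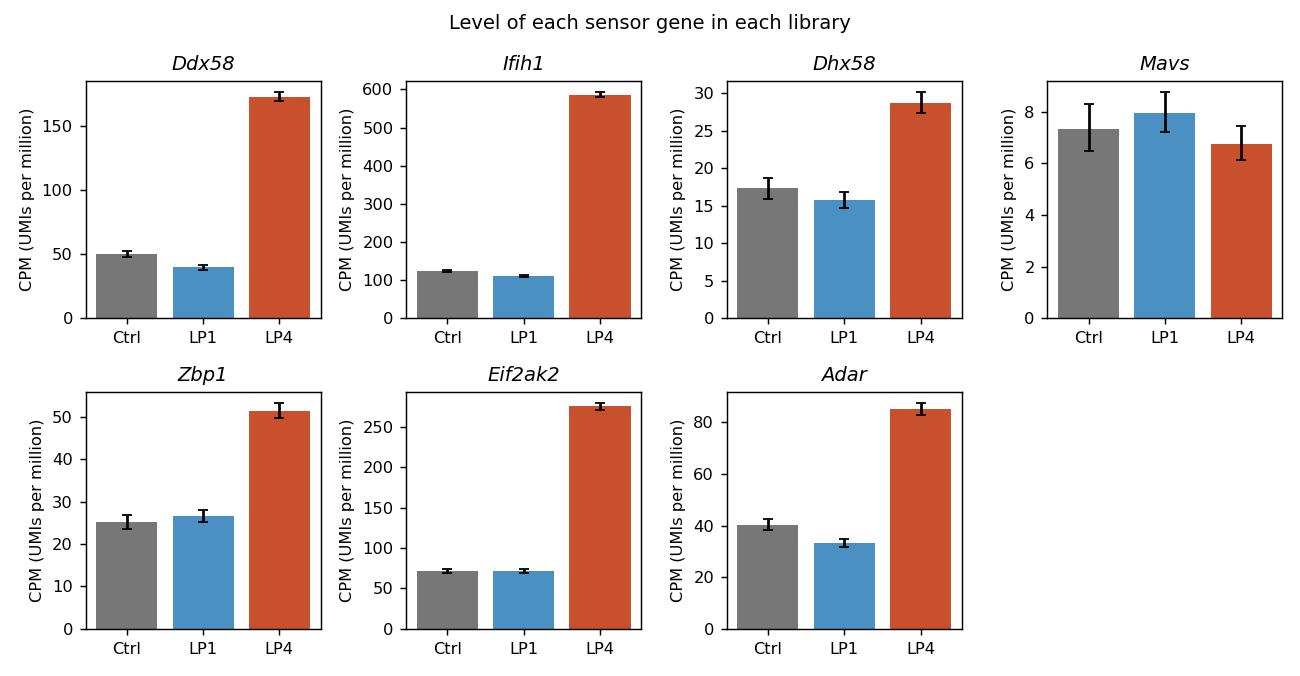
Level of each of the 7 genes (y axis, CPM, from 0) in the Ctrl, LP1 and LP4 libraries (x axis); bars are the summed level and error bars the exact Poisson 95% counting interval. The LP4 bar stands above the other bars for every gene but *Mavs*, from 1.66-fold over Ctrl for *Dhx58* to 4.74-fold for *Ifih1*.

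*Ddx58* (ENSMUSG00000040296, chromosome 4, 40203773 to 40239828, GRCm38) had 50.3 CPM in Ctrl (exact Poisson interval 48.0 to 52.7), 39.6 in LP1 (37.9 to 41.3) and 173 in LP4 (169 to 176). The order was LP4, Ctrl, LP1, and no intervals overlapped. The log2 ratio to Ctrl was -0.35 (-0.44 to -0.26) in LP1 and 1.78 (1.71 to 1.85) in LP4. At the own depth of each cell, a Ctrl cell held 0.296 UMIs on average and an LP4 cell 2.27. These means are not scaled for depth, at medians of 5133 UMIs per cell in Ctrl and 11784 in LP4.

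*Ifih1* (ENSMUSG00000026896, chromosome 2, 62595798 to 62646255) was the member with the largest ratio. Its level was 124 CPM in Ctrl (120 to 127), 110 in LP1 (108 to 113) and 586 in LP4 (580 to 592). Again LP1 lay under Ctrl and the 3 intervals did not overlap. The log2 ratio to Ctrl was -0.17 (-0.22 to -0.11) in LP1 and 2.24 (2.20 to 2.29) in LP4. At the own depth of each cell, 52.3% of LP4 cells held at least 5 UMIs of *Ifih1*, against 3.26% in Ctrl and 5.39% in LP1. The highest LP4 cell held 110 UMIs. These values are not scaled for depth, which was largest in LP4.

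*Dhx58* (ENSMUSG00000017830, chromosome 11, 100694884 to 100704271), the RIG-I-like receptor without signalling domains, had 17.3 CPM in Ctrl (16.0 to 18.7), 15.7 in LP1 (14.7 to 16.9) and 28.7 in LP4 (27.4 to 30.1). LP1 and Ctrl overlapped, and LP4 stood above them. The log2 ratio of LP4 to Ctrl was 0.73 (0.60 to 0.87), the smallest of the 3 receptors. The antisense gene *Dhx58os* overlaps it on the other strand and had 6, 15 and 34 UMIs in Ctrl, LP1 and LP4, beside 617, 826 and 1764 for *Dhx58*.

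*Mavs* (ENSMUSG00000037523, chromosome 2, 131234063 to 131248025), the adaptor of RIG-I and MDA5, had 7.34 CPM in Ctrl (6.48 to 8.29), 7.95 in LP1 (7.20 to 8.75) and 6.76 in LP4 (6.12 to 7.44). The interval of the log2 ratio of LP4 to Ctrl ran from -0.35 to 0.11 around -0.12, which does not reach the ratio of any other member. LP4 was below LP1, with a log2 ratio of -0.23 (-0.43 to -0.03). The sums rest on 262, 417 and 415 UMIs, the fewest of the 7 genes.

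*Zbp1* (ENSMUSG00000027514, chromosome 2, 173206612 to 173218923) had 25.1 CPM in Ctrl (23.5 to 26.8), 26.5 in LP1 (25.1 to 27.9) and 51.4 in LP4 (49.6 to 53.2). Ctrl and LP1 overlapped. The log2 ratio of LP4 to Ctrl was 1.03 (0.93 to 1.14), whose interval holds the 2-fold line.

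*Eif2ak2* (ENSMUSG00000024079, chromosome 17, 78852564 to 78882573) had 71.4 CPM in Ctrl (68.6 to 74.2) and 71.4 in LP1 (69.2 to 73.8), and 275 in LP4 (271 to 279). The log2 ratio of LP1 to Ctrl was 0.00 (-0.07 to 0.07), the closest to 0 of the 7 genes, and that of LP4 to Ctrl was 1.95 (1.89 to 2.01). *Adar* (ENSMUSG00000027951, chromosome 3, 89715022 to 89753446) had 40.2 CPM in Ctrl (38.2 to 42.4), 33.4 in LP1 (31.9 to 35.0) and 85.1 in LP4 (82.8 to 87.5). Like *Ddx58* and *Ifih1* it was lower in LP1 than in Ctrl, with a log2 ratio of -0.27 (-0.37 to -0.17), and higher in LP4, with 1.08 (1.00 to 1.17). The *Chrnb2* gene overlaps *Adar* on the other strand with 25 to 50 UMIs per library.

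Of all genes with at least 20 UMIs in the pair of libraries, 11.6% were at least 2-fold higher in LP4 than in Ctrl, beside 5 of the 7 members. For LP4 over LP1 it was 10.9% beside 4 of 7, with *Zbp1* at 1.94-fold. For LP1 over Ctrl it was 1.45% beside 0 of 7. No member was at least 2-fold lower in any comparison, beside 15.6% of all genes for LP4 over Ctrl, 12.5% for LP4 over LP1 and 3.15% for LP1 over Ctrl. The median log2 ratio of the members was 1.08 for LP4 over Ctrl, 1.35 for LP4 over LP1 and -0.14 for LP1 over Ctrl, beside medians over all genes of -0.15, -0.10 and -0.04. LP4 is in both of the first comparisons and Ctrl in the first and the last, so these counts are not independent of each other.

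The share of cells with a UMI was taken at the own depth of each cell and after thinning each cell to 2000 UMIs, since LP4 cells held more UMIs. Cells under that depth, 122 in Ctrl, 13 in LP1 and 45 in LP4, were left out of the thinned shares. *Ifih1* was seen in 33.8% of cells in Ctrl, 44.2% in LP1 and 92.2% in LP4. At equal depth the shares were 17.7% (16.8 to 18.7), 16.3% (15.3 to 17.4) and 55.8% (54.4 to 57.2), so LP1 was no longer above Ctrl. *Eif2ak2* was seen in 30.6%, 45.4% and 89.4% of cells, and after thinning in 13.2%, 13.1% and 40.2%. *Ddx58* was seen in 22.5%, 28.0% and 78.9%, and after thinning in 9.87% (9.12 to 10.7), 7.98% (7.24 to 8.76) and 27.5% (26.3 to 28.9).

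The other 4 genes were seen in fewer cells. *Adar* had thinned shares of 7.24%, 6.00% and 15.1%, *Zbp1* of 5.03%, 5.46% and 9.06% and *Dhx58* of 3.56%, 3.50% and 5.41%. *Mavs* was seen in 4.18%, 7.94% and 7.92% of cells at own depth and in 1.43% (1.14 to 1.76), 1.76% (1.42 to 2.16) and 1.25% (0.95 to 1.62) after thinning. For 6 genes, all but *Mavs*, the thinned share was above that of Ctrl in LP4 with intervals apart. The share of all genes with thinned intervals apart was not taken, so this count has no background beside it. Thinned cells with no UMI of any member made up 57.0% of Ctrl, 59.2% of LP1 and 15.1% of LP4, and none held all 7.

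**Figure D2:**
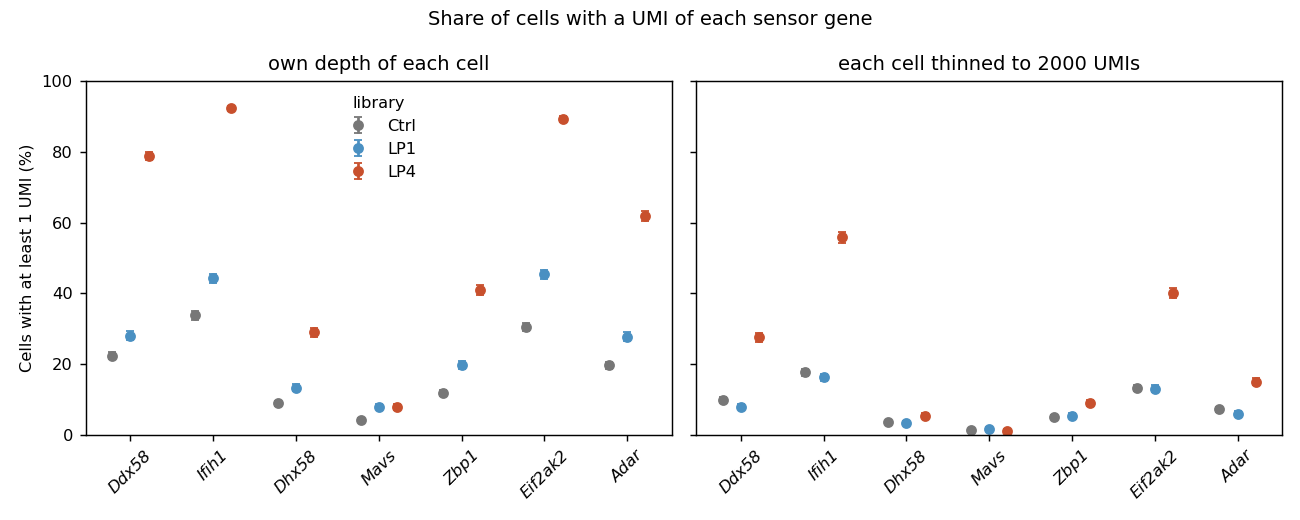
Share of cells with at least 1 UMI (y axis, percent) of each gene (x axis) in Ctrl, LP1 and LP4, at the own depth of each cell (left) and with each cell thinned to 2000 UMIs (right); points are shares and error bars exact binomial 95% intervals. At own depth LP1 lies above Ctrl for each gene, and at equal depth the LP1 and Ctrl points lie close together while LP4 remains apart for all genes but *Mavs*.

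Shares in neutrophil-like cells are given beside these. The cells form a small cluster led by *S100a9*, *Ngp* and *S100a8*, with 32 cells in Ctrl, 25 in LP1 and 28 in LP4 at medians of 2940, 5891 and 9262 UMIs. The name rests on *S100a9*, *Ngp*, *S100a8*, *Mpo*, *Camp* and *Elane*. Of the other neutrophil markers, *Retnlg*, *Ly6g* and *Cxcr2* had at most 0.84 CPM in any library, *Ltf* 2.61 to 3.59 and *Mmp8* 174 to 184. The maturity of these cells was not tested. Neutrophils can express the members too, so the shares can hold both free RNA and expression. *Ifih1* was seen in 14.3% of them in LP4 (exact binomial interval 4.03 to 32.7), under the 92.2% of all LP4 cells. *Zbp1* and *Dhx58* were seen in 3.57% of them each in LP4, and *Mavs* in 0 of 28 cells, whose interval runs up to 12.3%. *Ddx58* and *Adar* were each seen in 35.7% (18.6 to 55.9) and *Eif2ak2* in 46.4% (27.5 to 66.1). These shares are at own depth, with a median of 9262 UMIs in these LP4 cells beside 11784 in all LP4 cells. The comparisons with all cells were made for the members and not for all genes, so they have no background beside them. For 6 genes, all but *Mavs*, the share of all LP4 cells lay above the interval of these cells. In Ctrl the shares of *Dhx58*, *Mavs*, *Eif2ak2* and *Adar*, and in LP1 those of *Dhx58*, *Mavs* and *Eif2ak2*, lay within it. After thinning to equal depth, only *Ifih1* stayed apart in LP4, at 3.57% of these cells (0.09 to 18.3) and 55.8% of all cells. For *Ddx58*, *Dhx58*, *Mavs*, *Zbp1*, *Eif2ak2* and *Adar* the thinned share of all LP4 cells lay within the interval of the thinned neutrophil-like cells. With 25 to 32 cells a library the intervals are wide, and *Eif2ak2* in the Ctrl cells, at 86.1 CPM, was no lower than in all Ctrl cells, so these shares do not separate free RNA from expression.

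The 7 genes were followed in the clusters of the kept cells, which were made without them and without genes that differed 1.5-fold between libraries. Of 12 clusters, 7 held at least 50 cells of each library: A to E were macrophage-like, F was cycling-like and H dendritic cell-like. The name of H rests on *H2-Eb1*, *H2-Aa*, *H2-Ab1* and *Cd74* alone, and 6 macrophage markers were each seen in at least 50% of its cells. Of the other dendritic cell markers, *Flt3*, *Ccr7*, *Cd209a* and *Dpp4* had at most 0.40 CPM in any library, and *Zbtb46* and *Batf3* 1.03 to 6.90 CPM. Cluster C held 70 LP4 cells beside 1481 Ctrl and 1071 LP1 cells. Cluster G, macrophage-like and led by *Gbp4*, an interferon-induced GTPase, with *Il6* among its leading genes, held 903 LP4 cells beside 57 Ctrl and 41 LP1 cells and was not compared. Of the other small clusters, K was macrophage-like and led by the stress gene *Ddit3*, L stromal-like, I the neutrophil-like one and J unnamed.

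Within clusters, counts were made for the members and not for all genes, so they have no background beside them. *Ddx58*, *Ifih1* and *Eif2ak2* were at least 2-fold higher in LP4 than in Ctrl in 7 of 7 clusters. *Eif2ak2* ran from a log2 ratio of 1.71 in C to 2.08 in B, the narrowest range of the 3 here, but from 1.69 to 2.68 at resolution 0.8. *Ddx58* ran from 1.30 in H to 2.31 in the cycling-like cluster F. *Ifih1* varied most, from 1.26 in C to 3.75 in E, a macrophage-like cluster led by *Mgll*, *Eef1a2* and *Cd200*.

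Among the compared clusters of Ctrl, *Ifih1* was lowest in E at 59.3 CPM (51.9 to 67.4) and highest in C at 248 CPM (235 to 261). In LP4 it was highest in E at 798 CPM (779 to 818) and lowest in F at 408 CPM (391 to 427), with C at 594 CPM (535 to 658). Among the 7 compared clusters E was thus the lowest in Ctrl and the highest in LP4, each time with an interval apart from the next, while in LP1 it overlapped F. Outside them, the 28 neutrophil-like cells of LP4 had 33.4 CPM (14.4 to 65.8) and the 40 LP4 cells of unnamed cluster J, at a median of 1082 UMIs, had 955 CPM (704 to 1266). Of the 7 compared clusters, *Zbp1* had its lowest level in E both in Ctrl, at 11.7 CPM (8.57 to 15.6), and in LP4, at 31.0 CPM (27.3 to 35.1). In LP4 its interval overlapped that of F, and in Ctrl those of F and of H, the latter from 9 UMIs.

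*Adar* and *Zbp1* were higher in LP4 than in Ctrl in 7 of 7 clusters with intervals above 0, and at least 2-fold higher in 5 and 4 of them. *Zbp1* had its highest ratio, 2.38 (1.39 to 3.55), in H, from 9 UMIs in Ctrl and 91 in LP4. Its log2 ratio of LP1 to Ctrl in H was 1.07 (-0.06 to 2.34), the only one over the members and compared clusters that reached 2-fold, with an interval that holds 0. At resolution 0.3 the dendritic cell-like cluster gave 1.46 (0.13 to 3.04), from 6 and 24 UMIs. *Dhx58* was higher in 7 of 7 clusters, with intervals above 0 in 5 and a ratio of at least 2-fold in E alone. *Mavs* was higher in 2 of 7 and no interval left out 0. With the coarser clusters of resolution 0.3, 1 of 5 (B, macrophage-like) had *Mavs* at a log2 ratio of -1.14 (-1.64 to -0.65), from 78 UMIs in Ctrl and 64 in LP4. The leading genes of that B included *Egr3* and *Slc9a9*, as in C with its few LP4 cells. They also included *F13a1* and *Ms4a4a*, as in D and in G with its few Ctrl cells. The ratio may thus compare unlike cells, which was not tested.

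In LP1, *Ddx58* was below Ctrl in 7 of 7 clusters, with intervals under 0 in 4, and *Adar* in 6 of 7, with intervals under 0 in 3. *Ifih1* was below Ctrl in 4 of 7 clusters, with intervals under 0 in 2 and above 0 in 1, the dendritic cell-like H. In B and D, its log2 ratios of LP1 to Ctrl were 0.06 and 0.002, with intervals that hold 0. Only H, with 75 LP1 and 91 Ctrl cells, thus differed in direction beyond counting error, at 0.55 (0.11 to 1.00).

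**Figure D3:**
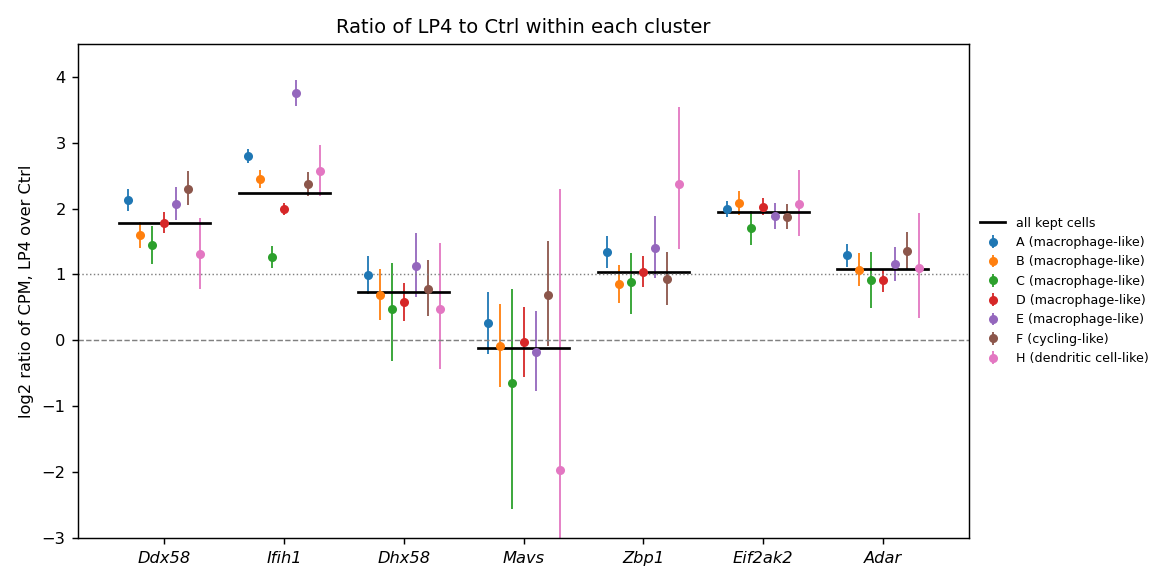
Log2 ratio of CPM, LP4 over Ctrl (y axis), of each gene (x axis) in the 7 clusters with at least 50 cells of each library; points are clusters, error bars exact 95% counting intervals and black lines the ratio over all kept cells. The interval of *Mavs* in H, from 1 LP4 UMI, runs off the axis; *Eif2ak2* lies between 1.71 and 2.08 in all 7 clusters and *Ifih1* between 1.26 and 3.75.

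Cells of each library were ordered by the share of their UMIs that came from 9 interferon-stimulated genes other than the members (*Ifit1*, *Ifit2*, *Ifit3*, *Isg15*, *Rsad2*, *Cmpk2*, *Oasl2*, *Usp18* and *Irf7*), and cut into 5 bins of equal cell number. The bins are ranges of 1 score and not cell types. In Ctrl, where the lowest bin and part of the next hold cells without a UMI of these genes, *Zbp1* was 6.29-fold higher in the highest bin than in the lowest, at 67.6 and 10.7 CPM. *Ddx58* was 4.55-fold higher, *Dhx58* 3.65-fold, *Ifih1* 3.15-fold, *Eif2ak2* 2.37-fold and *Adar* 1.86-fold, while *Mavs* was at 5.85 and 6.00 CPM. The sequence of folds was the same in LP1, from 6.95-fold for *Zbp1* to 2.39-fold for *Adar*, with *Mavs* at 1.10-fold.

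In LP4 the folds were smaller than in Ctrl for every gene but *Mavs*, and least so for *Ifih1*, whose intervals overlapped. *Ifih1* was 2.99-fold higher in the highest bin (892 CPM, 874 to 910) than in the lowest (298 CPM, 289 to 309), *Zbp1* 2.30-fold, *Dhx58* 1.88-fold, *Ddx58* 1.60-fold, *Eif2ak2* 1.49-fold, *Adar* 1.24-fold and *Mavs* 1.12-fold, the last with an interval that holds no difference. The log2 fold of *Ifih1* was 1.58 (1.52 to 1.64) in LP4 and 1.65 (1.51 to 1.80) in Ctrl. The lowest bin spanned scores of 0 in Ctrl and 0 to 0.43% in LP4, so the bins are not alike between libraries. With 3 bins in place of 5, *Ifih1* alone of the members was at least 2-fold higher in LP4, a count that was not made over all genes. All 28 neutrophil-like cells of LP4 lay in its lowest bin, among 934 cells.

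In the lowest LP4 bin, 5 genes were above the mean level of Ctrl with intervals apart, a count that was not made over all genes. *Eif2ak2* had 221 CPM there (212 to 229), *Ddx58* 132 (125 to 139), *Adar* 77.3 (72.3 to 82.6) and *Zbp1* 35.1 (31.8 to 38.8), with *Ifih1* as above. *Dhx58*, at 21.0 CPM (18.4 to 23.8), overlapped Ctrl. Conversely, *Zbp1* in the highest Ctrl bin, at 67.6 CPM (61.5 to 74.1), and *Dhx58*, at 36.9 CPM (32.4 to 41.8), were above the mean level of all LP4 cells. *Ifih1* (242 CPM), *Eif2ak2* (125 CPM), *Ddx58* (118 CPM) and *Adar* (61.1 CPM) in that bin were below the LP4 mean.

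**Figure D4:**
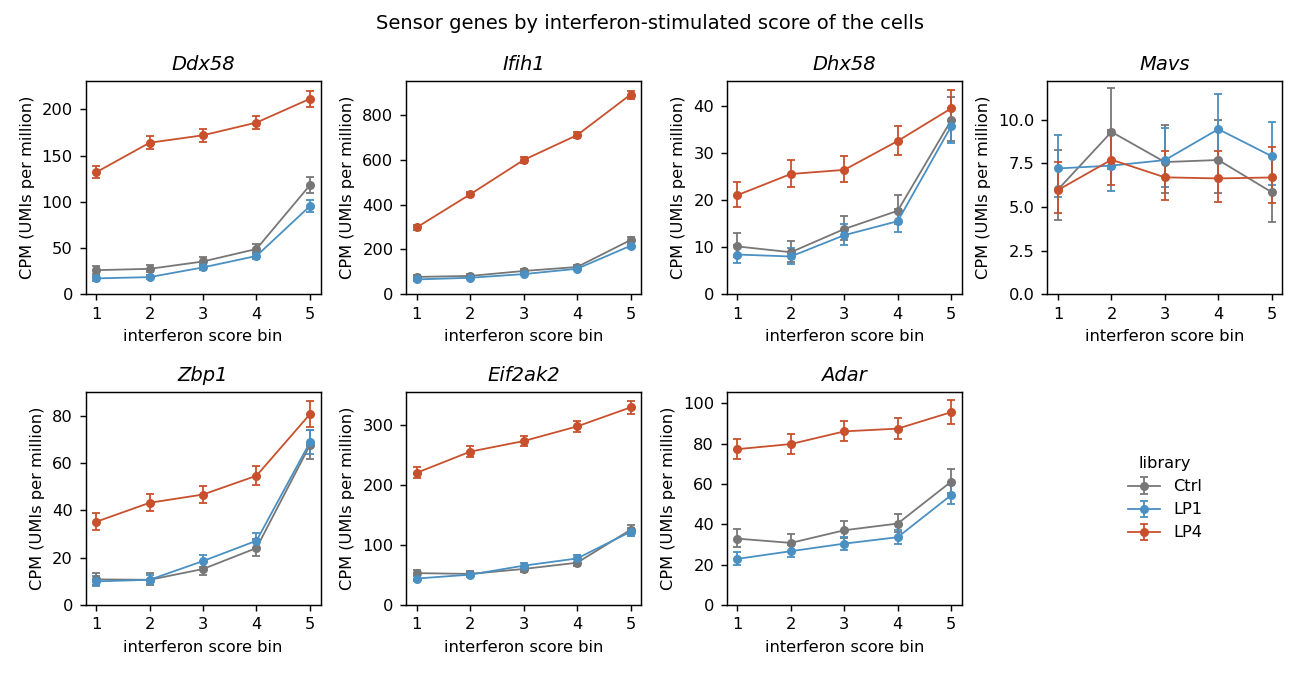
Level of each gene (y axis, CPM, from 0) in 5 bins of cells ordered by their share of UMIs from 9 interferon-stimulated genes (x axis, 1 the lowest) in Ctrl, LP1 and LP4; error bars are exact Poisson 95% counting intervals. The *Zbp1* and *Dhx58* lines of the 3 libraries approach each other in bin 5, where the intervals overlap for *Dhx58*. For *Zbp1* the LP4 interval there, 75.4 to 86.3 CPM, stays above those of Ctrl and LP1. LP4 also stays apart for *Ifih1*, *Eif2ak2*, *Ddx58* and *Adar*, and *Mavs* shows no slope beyond its intervals.

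Whether members were seen in the same cells was compared with the product of their shares. In thinned LP4 cells, *Ddx58* and *Ifih1* were both seen in 16.3% of cells, beside 15.4% for the product of their shares. *Ifih1* and *Eif2ak2* were both seen in 22.7%, beside 22.4%. Over the 21 pairs the median of the observed share over the product was 1.02 in LP4, with a range from 0.75 to 1.59, the ends being pairs with *Mavs* that were seen together in 12 and 5 cells. In Ctrl, *Ddx58* and *Ifih1* were both seen in 2.77% of cells, beside a product of 1.75%. Over all pairs the observed share over the product ran from 0.66 to 1.80 in Ctrl and from 0.94 to 2.41 in LP1. Higher shares, as in LP4, leave less room above the product, so the libraries are not compared by this measure. All the shares here rest on 2000 UMIs per cell, which leave most members at 0 or 1 UMI.

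Genes known to act with the members were taken from lists, and are given as LP4 over Ctrl by counts at least 2-fold higher or lower, to be read beside the 11.6% and 15.6% of all genes. Of 24 genes of RIG-I-like receptor signalling, 6 were higher and 1 lower, with a median log2 ratio of 0.37 (*Irf7*, *Ripk1* and *Fadd* are also in lists below). The higher ones were *Ddx60*, a helicase linked to RIG-I signalling, at 29.2 and 349 CPM (log2 ratio 3.58), *Trim14* (1.87), *Azi2*, an adaptor of TBK1 (1.72), *Trim25* and *Rnf135*, ubiquitin ligases that activate RIG-I (1.65 and 1.51), and *Traf2* (1.36). The lower one was *Irf3*, a transcription factor downstream of MAVS, at 13.7 and 6.43 CPM (-1.09, and -0.88 under the scaling that raised it most). The kinases *Tbk1* (0.23) and *Ikbke* (0.72) stayed within 2-fold.

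Of 17 genes that restrain this signalling, 4 were higher and 1 lower, with a median of 0.29. The ubiquitin ligase *Rnf125*, with 11 and 126 UMIs, was at 2.74, *March5* at 1.67, *Pcbp2*, which targets MAVS for degradation, at 1.18, and *Rnf5* at 1.15. *Nlrx1*, a mitochondrial protein that binds MAVS, was lower, at 8.74 and 1.95 CPM (-2.16).

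Of the 7 genes of the Z-nucleic acid death pathway, *Mlkl*, the protein that breaks the membrane in necroptosis, was at 2.11 and *Casp8* at 1.04. *Ripk3*, the kinase that ZBP1 binds, was at -0.63 and *Ripk1* at 0.19. Of the 9 genes of the PKR and eIF2 alpha arm that could be compared, the phosphatase subunit *Ppp1r15b* was at 2.26 and its stress-induced relative *Ppp1r15a* at -1.69. *Ddit3* was left out there because 2 counted features carry its name. The other eIF2 alpha kinases *Eif2ak1* (-0.19), *Eif2ak3* (-0.49) and *Eif2ak4* (-0.65) were slightly lower, where *Eif2ak2* was at 1.95.

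Of 14 other proteins that bind or edit double-stranded RNA, 1 was higher, *Adarb1*, a relative of *Adar*, at 1.18 and 3.39 CPM (1.53), and none was 2-fold lower, so the count higher was no larger a share than that of all genes. The median of this list was -0.04. Of 6 endosomal RNA receptor genes, *Tlr3* (1.30) and its chaperone *Unc93b1* (1.20) were higher and *Tlr13* was lower (-1.42). *Unc93b1* was at 108, 208 and 249 CPM in Ctrl, LP1 and LP4, so most of its difference was seen at 1 hour. Of the 9 interferon-stimulated genes used for the bins, 8 were higher with a median of 3.40, from *Oasl2* at 1.89 to *Ifit1* at 5.67, and *Irf7* was at 0.40. In LP1 no gene of any list was 2-fold from Ctrl.

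**Figure D5:**
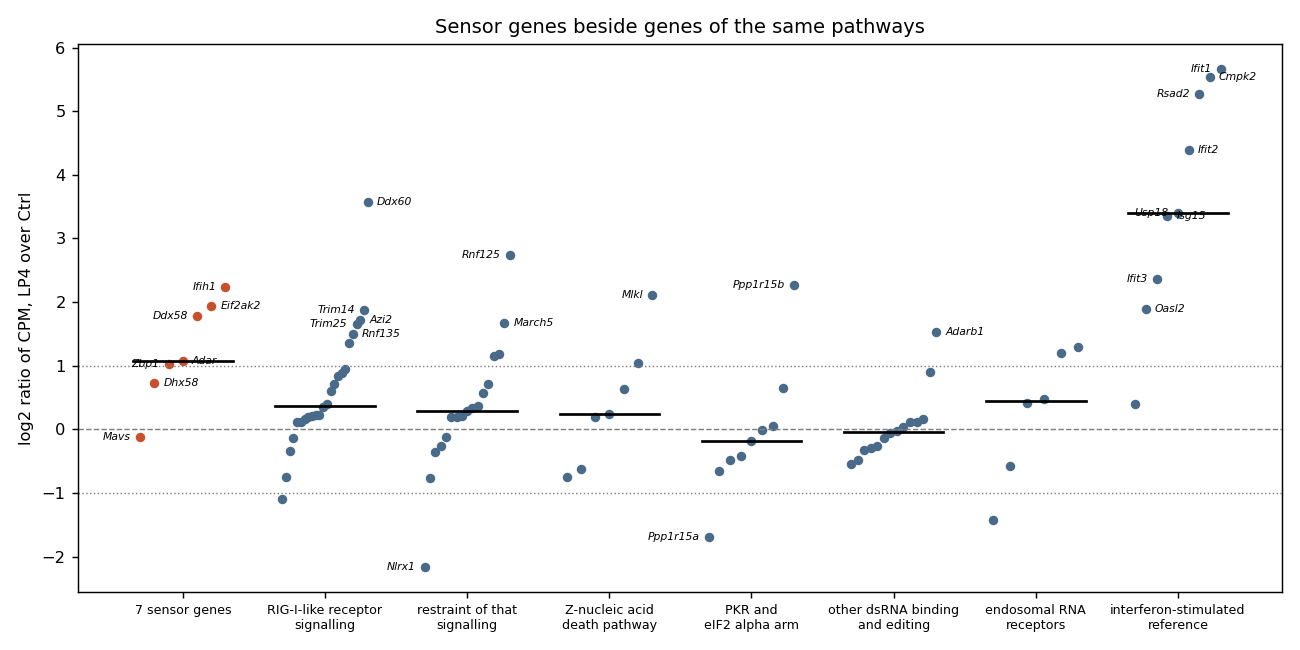
Log2 ratio of CPM, LP4 over Ctrl (y axis), of the 7 genes and of genes of 7 lists with at least 20 UMIs (x axis); each point is a gene, black lines are medians and dotted lines mark 2-fold. The medians are 1.08 for the 7 genes, 0.37 for RIG-I-like receptor signalling and 3.40 for the interferon-stimulated reference.

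Across 23 points of cluster and library with at least 50 cells, the genes whose log2(CPM + 1) was most like that of each member were searched among 3787 genes. For *Ddx58* they were *Parp14* (Pearson r 0.98), *Rsad2* (0.98) and *Trim30a* (0.98), and for *Ifih1* they were *Ifi203* (0.98), *Trim30a* (0.98) and *Parp14* (0.98). For *Eif2ak2* they were *Usp25* (0.99), *Rnf213* (0.98) and *Nlrc5* (0.98), and for *Adar* they were *Herc6* (0.97), *Parp12* (0.97) and *Acvr1b* (0.97). *Dhx58* was closest to *Gm15987* (0.94), *Trim30c* (0.94) and *Ifit1bl1* (0.94), and *Zbp1* to *Cxcl16* (0.94), *Ifi44l* (0.94) and *Mndal* (0.93).

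*Mavs* was closest to *Pkig* (0.89), *Phf14* (0.89) and *Fads1* (0.79), of which none differed 2-fold between libraries. Among the members, *Ddx58* and *Ifih1* were most alike (0.96), followed by *Eif2ak2* and *Adar* (0.95), while *Mavs* lay between -0.44 and 0.12 with the other members. The points share 3 libraries and their depths, so these values describe this set and have no p.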

How the data were processed

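The authors aligned the reads with Cell Ranger (7.1.0 per the labels) to the mm10 reference and deposited raw UMI counts of each gene in each barcode; whether intronic reads were counted is not given in the sources used here. The cell filter of the study's methods was applied (UMIs and genes each above 500, mitochondrial share below 5%); it kept 15806 of 16281 barcodes, more than the cells the study states after its filter, and which further cells the study left out is not given in the sources used here. The kept cells of Ctrl, LP1 and LP4 held 35688939, 52475723 and 61402275 UMIs. Ctrl shared 10 barcode sequences with LP1 and 7 with LP4, and LP1 shared 4 with LP4.

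UMIs were summed per library and scaled to CPM; intervals were exact Poisson for levels, exact conditional binomial for ratios and Clopper-Pearson for shares, all at 95%. Scripts were tested on simulated data. Clustering (scanpy 1.11.5, leidenalg 0.10.2, seed 20) used 2000 variable genes that differed by less than 1.5 times between libraries, centred within library, 30 components, 20 neighbours and a resolution of 0.5. Clusters were named by at least 3 listed markers among the 10 leading genes, or by 3 macrophage markers seen in 50% of cells. No doublet caller was used; the 5% of cells with the highest doublet score or the most UMIs were left out as alternatives. TMM factors came from edgeR 4.0.16. Gene positions were read from GENCODE vM21 (GRCm38). The genes named are the members, the listed genes and, for each member, the 3 most alike genes with at least 50 CPM in a library. The members and lists were chosen with earlier results of these data known.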

Additional observations from a re-analysis of the deposited data

Results flagged for a closer look

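*Ddx58*, *Ifih1* and *Adar* were lower in LP1 than in Ctrl and higher in LP4, each with counting intervals that leave out 0 on opposite sides. They are given here because the direction differed between the time points; with 1 library for each, this difference was not tested, and Ctrl is shared by both comparisons. The log2 ratio of LP4 to LP1 was 2.13 for *Ddx58*, 2.41 for *Ifih1* and 1.35 for *Adar*. Over the cell filters, scalings and cell selections tried, the log2 ratio of LP1 to Ctrl ran from -0.38 to -0.27 for *Ddx58*, from -0.29 to -0.19 for *Adar* and from -0.18 to -0.04 for *Ifih1*. With TMM scaling the median over all genes moved from -0.04 to 0.03 for LP1 over Ctrl. The share of all genes with such a change of direction was not counted. Lower levels in LP1 were not particular to these members. The 9 interferon-stimulated genes used for the bins had a median log2 ratio of LP1 to Ctrl of -0.30, from -0.47 to 0.31. The median of the members was -0.14.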

How the results depend on the processing

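No paired analysis was possible because each condition has 1 library. The median log2 ratio of the members for LP4 over Ctrl was 1.23 with a mitochondrial limit of 3%, 1.25 with TMM factors and 1.29 with median-of-ratios size factors, and for LP4 over LP1 it was 1.45 with TMM and 1.48 with median-of-ratios. These scalings moved the median over all genes for LP4 over Ctrl from -0.15 to 0.02 and 0.06. A limit of 4-fold left 1 member higher for LP4 over Ctrl and 2 for LP4 over LP1. With 3 bins of the interferon score, 1 member was at least 2-fold higher in the highest bin of LP4. The counts at 4-fold and over the bins were made for the members alone, so they have no background beside them. Counts of members at least 2-fold higher stayed between 4 and 5 for LP4 over Ctrl and for LP4 over LP1 under every cell filter, scaling and cell selection tried; *Zbp1* was under 2-fold for LP4 over Ctrl when each cell weighed the same. *Mavs* ran from -0.32 to 0.09 for LP4 over Ctrl. The share of all genes at least 2-fold higher in LP1 than in Ctrl was 11.3% with no minimum of UMIs and 0.80% with 200. At resolutions of 0.3 and 0.8, 3 members were again at least 2-fold higher in every compared cluster, counted for the members alone. *Mavs* was lower with an interval under 0 in 1 cluster at 0.3, and the range of *Eif2ak2* widened at 0.8. The alternative without neutrophil-like, dendritic cell-like and stromal-like clusters, and the bins in Ctrl and LP1, were chosen after seeing the data. Depth limits *Mavs* most, with 262 UMIs in Ctrl.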
